A study of Mus musculus with 6 samples.

Results

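The 150 most abundant long non-coding RNA (lncRNA) genes of the mouse cerebellum were examined after exposure to methylmercury (MeHg) before birth. They were the 150 of 10532 autosomal lncRNA genes in the deposited table chosen by the highest mean level over all 6 libraries, control and MeHg alike. Levels are given as CPM, the count of a gene divided by the total of its library and scaled to a common library size. This mean chose the genes, so the order of levels is given as a description, and the contrast of MeHg with control was not used in the choice. The last genes inside the limit were ENSMUSG00000121226, Gm48226 and 2810455O05Rik, with means of 10.9, 10.7 and 10.7 CPM. The first outside it were Gm11611, 2900052L18Rik and 9330188P03Rik, with 10.6, 10.5 and 10.5 CPM.

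RNA was sequenced from the cerebellum of C57BL/6J mice aged 90 to 120 days, an adult age. The 3 MeHg mice came from dams that drank water with 0.2 ppm MeHg, an organic mercury compound toxic to neurons, from conception to birth, and the 3 control mice from dams on water with 0 ppm. Under this protocol the MeHg water ended at birth, so the samples show RNA levels about 3 months after dosing of the dams ended. Mercury levels in the mice are not in the labels. Dam and litter are not in the labels, and the tests therefore rest on the variation among these 6 mice, of which some may be litter mates. Each group had 2 mice labelled female and 1 labelled male, but control replicate 2, labelled female, had almost no Xist RNA (0.0130 FPKM) and had RNA of Y-linked genes. By these RNAs control replicates 2 and 3 and MeHg replicate 2 were male and the other libraries female. Sex by RNA was therefore not balanced between the groups.

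Long non-coding RNAs are transcripts that do not code for a protein. Some act in the nucleus on chromatin, splicing or nuclear bodies, some silence neighbouring genes in cis, and others are processed into microRNAs or small nucleolar RNAs (snoRNAs) that lie within them. In the brain many of them are restricted to particular cell types, and their genes often lie on the opposite strand of a coding gene.

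Total counts were 14116088 to 20303833 a library, and the 150 genes together took 0.893 to 1.05% of the counts in controls and 0.903 to 1.01% in MeHg. All 150 passed the filter on low counts that left 16859 genes of any kind for testing. The tissue carried its defining markers, and marker sums in FPKM differed between groups for several cell types. Granule cell markers summed to 2022 to 2198 in controls and 1497 to 1758 in MeHg, with all 15 markers lower and 5 of them called. Choroid plexus markers summed to 32.7 to 1639 in controls and 1336 to 5762 in MeHg, with all 15 higher, none of them called, and Kcne2 at 0 in some library. Brainstem markers summed to 90.3 in MeHg replicate 2 and to 14.98 to 26.6 in the other libraries, with Slc6a4, Hoxb5 and Hoxa5 at 0 in some library. Oligodendrocyte markers summed to 1059 to 1220 in controls and 1227 to 1572 in MeHg, Purkinje cell markers to 1897 to 2005 and 1526 to 1968, astrocyte markers to 769 to 816 and 700 to 801, endothelial markers to 79.7 to 88.4 and 92.1 to 114, and microglial markers to 77.3 to 83.4 and 89.5 to 102. In a bulk tissue, fewer cells of a type and less RNA per cell cannot be told apart.

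The comparison asked whether abundant lncRNAs differed in the adult offspring of exposed dams. Of the 150, 1 rose and 2 fell in MeHg by edgeR's quasi-likelihood test at an adjusted p under 0.05. ENSMUSG00000121179, opposite the coatomer subunit gene Copg2, rose 1.75-fold, Gm2694, opposite the cerebellin gene Cbln1, fell 1.34-fold and 5830444B04Rik, opposite the cilium gene Cfap74, fell 1.49-fold. All 3 called genes overlapped a coding gene on the other strand, as did 49 of the 150, and 3 genes are too few to link this position with being called. These 3 were 2.00% of the 150, beside 2.36% of all genes tested (0.575% higher and 1.79% lower), so the count is no result about lncRNAs as a class. With control replicate 1, control replicate 3, MeHg replicate 1 or MeHg replicate 3 left out, none of the 150 was called by edgeR (36, 32, 43 and 39 at an unadjusted p under 0.05). Of all genes tested, 0, 0, 2 and 0 were called in those fits, so the calls were lost over the whole table. With MeHg replicate 2 left out, 12 of the 150 were called (6.33% of all genes). At an adjusted p under 0.10 there were 5 higher and 20 lower genes, 16.7% of the 150, beside 9.80% of all genes.

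Of the 150 genes, 95 had a negative and 55 a positive log2 fold change, with a median of -0.07 and a range from -0.82 to 1.36. The median over all genes tested was 0.01, as it was over the 14182 coding genes, and that of the 1365 other autosomal lncRNA genes tested was -0.01. In 33 of the 150 genes, 22%, every MeHg library lay below every control, beside 15.5% of all genes. In 15 genes, 10%, every MeHg library lay above every control, beside 13.9% of all genes. Among the other autosomal lncRNA genes, 0.147% were called, 9.60% lay lower and 6.59% higher without overlap. By the rule of choice these genes all had lower mean levels than the 150, so their shares are not at like counts. Their median absolute log2 fold change was 0.27, against 0.17 in the 150. At an unadjusted p under 0.05 there were 11 higher and 32 lower genes among the 150, 28.7% together. The share of all genes was 24.5% (11.8% higher and 12.7% lower). Without both libraries numbered 2, the counts that did not overlap were 36 higher and 57 lower, beside 29.0% and 29.5% of all genes.

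Gm2694 (chr8:88187097-88252195, plus strand, mm39) overlaps Cbln1, the granule cell gene for a synapse-organising protein, on the other strand. How many bases overlap was not measured. With no entry in GENCODE vM39, Gm2694 has a deposited length of 7188 bases over a span of 65099. Its level was 85.2, 73.8 and 84.8 CPM in control replicates 1, 2 and 3 and 60.04, 59.5 and 62.4 CPM in MeHg replicates 1, 2 and 3. The 3 controls lay between 73.8 and 85.2 CPM, and the 3 MeHg libraries, close together, lay below them without overlap. The log2 fold change was -0.42 ± 0.07 (SE; adjusted p = 0.0431). Cbln1 itself had a log2 fold change of -0.18 ± 0.09 (adjusted p = 0.241), and its groups overlapped. Granule cell markers were lower in the same libraries (values above), and their part in this result was not tested.

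5830444B04Rik (chr4:155483220-155506161, minus strand) lies opposite Cfap74, a gene of the ciliary axoneme. It measured 22.6, 20.6 and 22.8 CPM in the controls and 15.6, 13.7 and 14.8 CPM in MeHg, in the order of the replicates. All 3 MeHg libraries were below all 3 controls, with little spread in either group. The log2 fold change was -0.58 ± 0.10 (adjusted p = 0.0431), against -0.19 ± 0.11 for Cfap74 (adjusted p = 0.320). Without control replicate 2 the call was lost (adjusted p = 0.0524); the other 2 called genes passed without that library. Ependymal markers, most of them cilium genes, summed to 11.5 to 18.2 FPKM in controls and 26.9 to 42.9 in MeHg. Of these 11 markers, 10 were higher and 4 were called higher. Their part in this result was not tested.

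ENSMUSG00000121179, named Gm56999 in GENCODE vM39, is a gene of a single exon (chr6:30782687-30785779, plus strand) within the span of Copg2. It measured 30.5, 49.4 and 35.3 CPM in the controls and 62.8, 71.1 and 68.4 CPM in MeHg. The MeHg libraries lay close together above all controls, among which replicate 2 was the highest. The log2 fold change was 0.81 ± 0.16 (adjusted p = 0.0433), whereas Copg2 had -0.02 ± 0.08 (adjusted p = 0.917) at 72.1 to 87.7 CPM in every library. How strand was handled in counting is not given in the sources used here, so reads of an antisense gene and of its partner cannot be told apart with certainty for any of the 3.

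**Figure D1:**
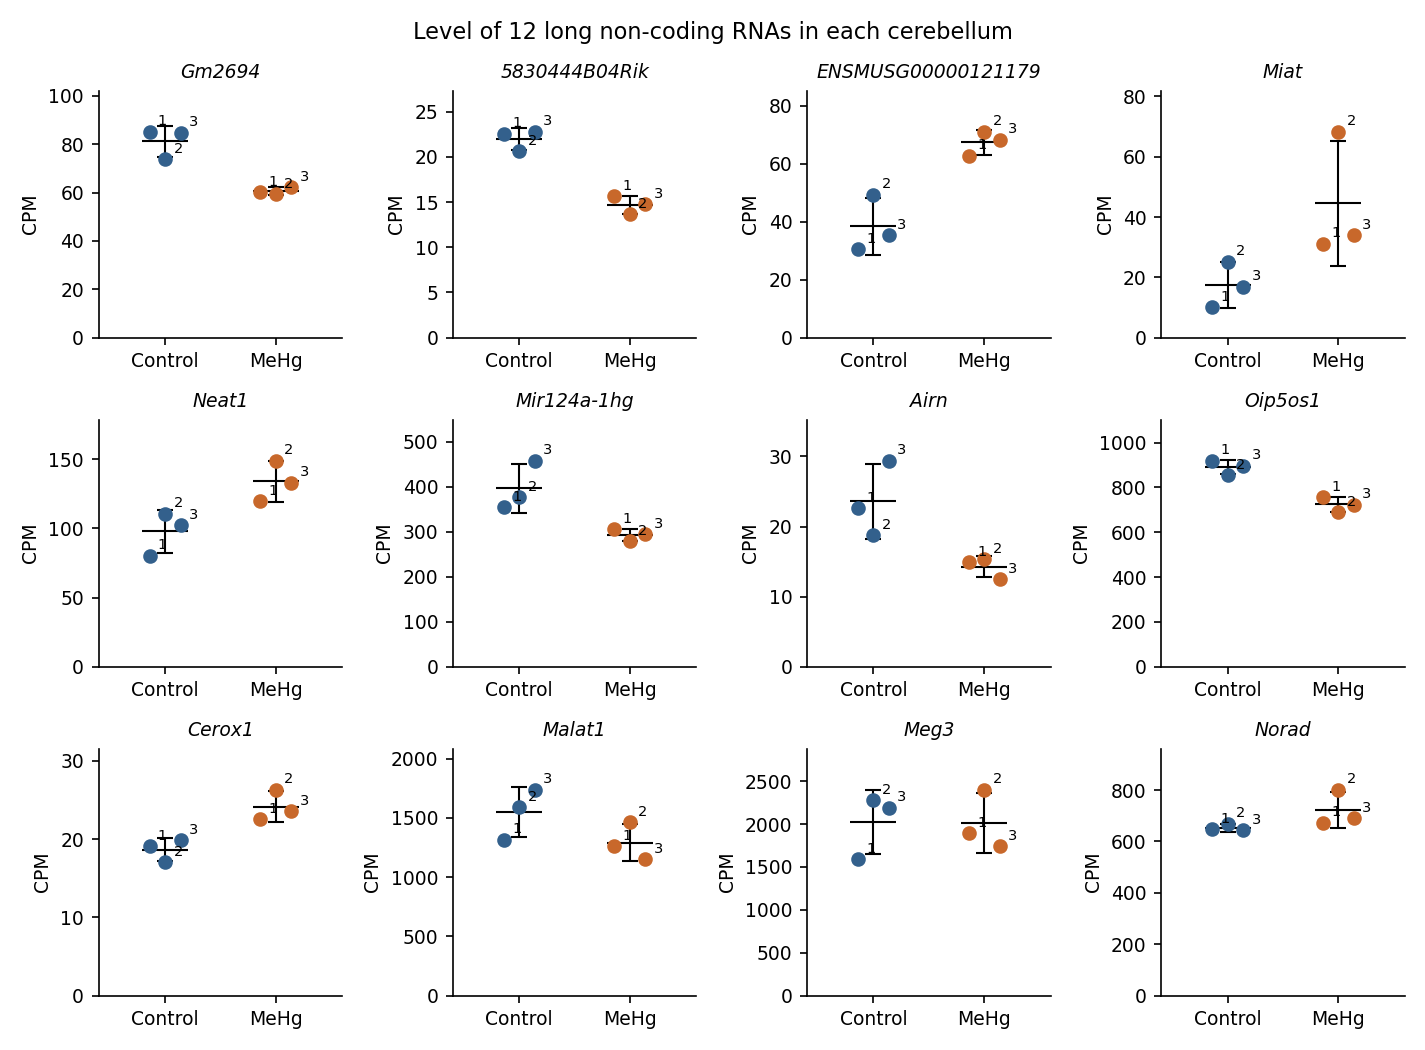
Level of 12 lncRNAs in CPM (y axis, from 0) in each of the 6 cerebella, numbered by replicate, with the group mean and SD as black bars. The 3 called genes, Gm2694, 5830444B04Rik and ENSMUSG00000121179, do not overlap between groups; Miat is highest in MeHg replicate 2, and Meg3 and Malat1 overlap.

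Start-site sequences were available in the RefSeq tables (GRCm38.p6) for 75 of the 150 genes, as 90 windows of 300 bases, 250 before and 50 after the start. They were searched on both strands for the metal response element core bound by MTF-1, a zinc-sensing transcription factor that induces metallothioneins (TGCACNC or TGCGCNC). It occurred in 33 of the 90 windows, 36.7%, beside 25.7% of all 32851 windows. The antioxidant response element (TGACNNNGC) occurred in 13.3% beside 12.4%, the cyclic AMP response element (TGACGTCA) in 6.67% beside 1.79%, and the TATA box (TATAAA) in 13.3% beside 13.6%. The windows are those of Gm2694, which was called, and of Miat, which had the largest fold change of the 150, shown because both hold the metal response core, in capitals.
Gm2694 (GRCm38.p6 chr8:87472866-87473165, plus strand): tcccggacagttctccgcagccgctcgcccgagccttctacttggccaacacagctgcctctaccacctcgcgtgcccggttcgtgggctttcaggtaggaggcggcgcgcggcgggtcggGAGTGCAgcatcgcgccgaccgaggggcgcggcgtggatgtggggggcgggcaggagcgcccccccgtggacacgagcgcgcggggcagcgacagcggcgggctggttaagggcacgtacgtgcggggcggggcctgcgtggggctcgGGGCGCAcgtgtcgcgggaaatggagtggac
Miat (GRCm38.p6 chr5:112228899-112229198, minus strand): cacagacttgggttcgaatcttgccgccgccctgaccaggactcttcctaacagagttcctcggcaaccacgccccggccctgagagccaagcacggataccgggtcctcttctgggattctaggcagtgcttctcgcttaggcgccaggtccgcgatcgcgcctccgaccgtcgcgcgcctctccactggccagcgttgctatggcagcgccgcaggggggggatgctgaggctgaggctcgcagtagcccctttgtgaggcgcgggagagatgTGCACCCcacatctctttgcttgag
The Gm2694 window holds 2 matches, both read on the other strand, and the Miat window holds 1. A match is a run of letters and not a measured site. The Gm2694 window was 73.7% G and C and the Miat window 64.3%, and base composition was not compared between the 90 windows and the rest.

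Levels of different genes can be compared only per length, as FPKM. By mean FPKM over the 6 libraries the first 10 were Malat1 (190), Norad (130), Meg3 (99.0), Oip5os1 (70.5), ENSMUSG00000120976 (68.8), Mir124a-1hg (64.3), Peg13 (59.3), ENSMUSG00000120732 (30.9), ENSMUSG00000120113 (27.0) and ENSMUSG00000121141 (20.1). Their log2 fold changes ran from -0.44 to 0.34, with 5 on each side of 0 and none called. The unnamed ones had 0.03 for ENSMUSG00000120976, 0.23 for ENSMUSG00000120732, 0.15 for ENSMUSG00000120113 and 0.34 for ENSMUSG00000121141, and in the last 3 every MeHg library lay above every control.

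A list of nuclear and other structural RNAs held 7 lncRNA genes of the table, of which 5 were among the 150, and none was called. Malat1, a speckle RNA of nuclei, measured 1318, 1592 and 1738 CPM in the controls and 1261, 1463 and 1152 CPM in MeHg, with overlapping groups and a log2 fold change of -0.26 ± 0.12 (adjusted p = 0.228). Neat1, the scaffold of paraspeckles and the neighbour of Malat1 on chromosome 19, measured 80.3, 111 and 102 CPM in the controls and 119.9, 149 and 133 CPM in MeHg. Here all MeHg libraries were above all controls, and the log2 fold change of 0.45 ± 0.12 did not pass (adjusted p = 0.0747).

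Miat, a nuclear lncRNA of neurons, had the largest fold change among the 150. It measured 10.04, 25.2 and 16.9 CPM in the controls and 31.2, 68.3 and 34.1 CPM in MeHg. The groups did not overlap, but MeHg replicate 2 was far above the other 2 exposed mice and control replicate 2 was above the other 2 controls. The log2 fold change was 1.36 ± 0.36 (adjusted p = 0.0752) and was 0.92 without MeHg replicate 2 (adjusted p = 0.0768). Brainstem markers were highest in the same library, among them Tph2, the serotonin-synthesis enzyme, at 67.5 CPM against 0.203 to 1.48 in the others, and their part in the level of Miat was not tested.

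Norad, a cytoplasmic RNA that binds Pumilio proteins, measured 646, 669.7 and 643 CPM in the controls and 673, 801 and 691 CPM in MeHg, a log2 fold change of 0.14 ± 0.08 (adjusted p = 0.313). Oip5os1, also called Cyrano and known for the decay of miR-7, measured 919, 855 and 898 CPM in the controls and 758, 691 and 724 CPM in MeHg. All MeHg libraries of Oip5os1 lay below all controls, and its log2 fold change of -0.30 ± 0.07 just missed the threshold (adjusted p = 0.0602). Of the 5, Neat1, Miat and Norad thus lay on the higher side of control, and Malat1 and Oip5os1 on the lower.

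Imprinted lncRNAs are expressed from 1 parental chromosome, and several silence their neighbours. Of 9 listed lncRNA genes in the table, 7 were among the 150; 6 had a negative log2 fold change, the median was -0.14 and none was called. With an offset for gene length in the fit, 3 of the 7 were negative and the median was 0.032, so the sign of the list's median depended on that setting. The 3 lncRNAs of the Dlk1-Dio3 domain on chromosome 12 were Meg3 (-0.01 ± 0.16), Rian (-0.14 ± 0.08) and Mirg (-0.36 ± 0.15). Meg3, the most abundant of all 150 by CPM, measured 1592, 2276 and 2193 CPM in the controls and 1892, 2401 and 1741 CPM in MeHg, with groups that overlapped almost wholly. Peg13 had -0.06 ± 0.06 and Kcnq1ot1, the longest at 93092 bases, 0.03 ± 0.13, while its partner Kcnq1 had too few counts to be tested.

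Airn, which silences Igf2r on the paternal chromosome, had the lowest fold change of the imprinted genes. It measured 22.7, 18.8 and 29.4 CPM in the controls and 14.9, 15.3 and 12.5 CPM in MeHg, and its groups did not overlap. The log2 fold change was -0.72 ± 0.17 (adjusted p = 0.0551), and its partners had -0.16 for Igf2r (adjusted p = 0.172) and -0.01 for Mas1 (adjusted p = 0.987). Snhg14, the long host of the Angelman and Prader-Willi region that silences the paternal Ube3a in neurons, had -0.23 ± 0.07 (adjusted p = 0.105). With the length offset the value for Snhg14 was 0.032. Ube3a, on the other strand, had -0.32 ± 0.07 (adjusted p = 0.0545). Both members of that pair lay lower in every MeHg library than in every control, and reads in their overlap could be assigned to either.

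Genes that hold snoRNAs, small RNAs that mostly guide the modification of other RNAs, lay on both sides of control. By the positions in the deposited table, 8 of the 150 hold 247 snoRNA loci, of which Snhg14 alone holds 208. None was called; their median log2 fold change was -0.01 (0.087 with the length offset and 0.029 with upper-quartile scaling), with 4 on each side of 0. The listed hosts had 0.19 for Gas5, 0.28 for Zfas1, 0.20 for Snhg20, 0.02 for Snhg1 and -0.19 for Snhg17. Gas5, a transcript that accumulates when growth stops, measured 36.3, 35.7 and 32.3 CPM in the controls and 33.6, 41.3 and 43.9 CPM in MeHg, and its groups overlapped.

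MicroRNA hosts formed the largest functional class. On their own strand, 24 of the 150 hold 63 microRNA loci, 36 of them in exons, 19 in introns and 8 partly in an exon of the GENCODE vM39 models. RefSeq held mature sequences for 52 of the loci by symbol. None of the 24 host genes was called, and their median log2 fold change was -0.12, with 16 below and 8 above 0. It was -0.053 with the length offset (14 below 0), -0.078 with upper-quartile scaling (15) and -0.11 with DESeq2 size factors (16). In 6 hosts all MeHg libraries lay below all controls, and in 1, Mir100hg, above, beside 15.5% and 13.9% of all genes. The values are those of the host transcripts, and the mature microRNAs themselves were not measured by this assay.

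Several hosts carry copies of the same microRNA, so host transcripts of 1 mature sequence can be set side by side. The mature forms below share a seed, bases 2 to 8 from the 5′ end, in capitals, within each family. These are miR-9 over 3 hosts, miR-129 over 2, let-7 over 2, miR-344 over 2, and miR-15a and miR-16 in 1. Mir100hg also holds a let-7 locus, let-7a-2, but only its let-7a-2-3p form, which has another seed, was available.
miR-9-5p: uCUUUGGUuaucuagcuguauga
miR-129-5p: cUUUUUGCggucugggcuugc
let-7a-5p: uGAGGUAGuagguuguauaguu
let-7b-5p: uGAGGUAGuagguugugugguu
let-7c-5p: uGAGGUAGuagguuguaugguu
let-7d-5p: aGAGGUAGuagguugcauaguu
let-7f-5p: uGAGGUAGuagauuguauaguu
miR-344-5p: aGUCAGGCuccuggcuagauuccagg
miR-344g-5p: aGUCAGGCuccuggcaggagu
miR-15a-5p: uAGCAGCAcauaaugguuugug
miR-16-5p: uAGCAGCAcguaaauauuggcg
MiR-9, a microRNA of neural progenitors and neurons, comes from Gm3764, C130071C03Rik and Mir9-3hg, all with the microRNA in an exon. Gm3764 had a log2 fold change of -0.05 ± 0.19, C130071C03Rik -0.31 ± 0.08 (adjusted p = 0.0764) and Mir9-3hg 0.20 ± 0.11. C130071C03Rik, named Mir9-2hg in GENCODE, measured 60.1, 68.5 and 66.6 CPM in the controls and 52.9, 48.5 and 56.2 CPM in MeHg and did not overlap between groups, whereas the other 2 hosts did.

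MiR-124, an abundant microRNA of neurons, also has 3 host genes among the 150. Mir124a-1hg, by far the most abundant of them, measured 354, 377 and 458 CPM in the controls and 305, 279 and 294 CPM in MeHg. Every MeHg library was below every control, and the log2 fold change was -0.44 ± 0.10 (adjusted p = 0.0531). Mir124-2hg had 0.21 ± 0.20 and Gm27032, which holds part of Mir124a-3, 0.06 ± 0.15, both with overlapping groups. As with miR-9, 1 of the 3 hosts lay lower without overlap and the other 2 lay on both sides of 0 or above it.

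The miR-129 hosts, Gm3294 and Mir670hg, had -0.41 ± 0.25 and -0.49 ± 0.23, with control replicate 2 and MeHg replicate 2 low in both. Of the 3 let-7 hosts, those with the microRNA in an exon had -0.05 ± 0.32 for Lncppara, with let-7b and let-7c-2, and -0.09 ± 0.18 for 6720427I07Rik, with let-7a-1, let-7d and let-7f-1. Lncppara varied from 8.83 to 25.5 CPM among controls alone. Mir100hg, the third let-7 host, holds miR-100, let-7a-2 and miR-125b-1 in an intron and had 0.20 ± 0.08 (adjusted p = 0.156), with all MeHg libraries above all controls.

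The miR-344 hosts lie beside each other on chromosome 7, and had -0.22 ± 0.13 for A230057D06Rik and -0.53 ± 0.18 for A330076H08Rik (adjusted p = 0.128). Dleu2, the host of miR-15a and miR-16-1 that is deleted in human chronic lymphocytic leukaemia, had the lowest value of the 24, -0.64 ± 0.19 (adjusted p = 0.0963). It measured 15.8, 16.9 and 18.97 CPM in the controls and 14.1, 7.92 and 10.99 CPM in MeHg, without overlap and lowest in MeHg replicate 2. Further hosts were E130102H24Rik of miR-101a (-0.30 ± 0.14), A330023F24Rik of miR-29b-2 and miR-29c (-0.28 ± 0.32), Gm6277 of Mir1901 (-0.44 ± 0.12), and C78859 of miR-138-2 (0.05 ± 0.13). Mirt1 was put on the list of microRNA hosts by its name, but it holds no microRNA locus on its strand and is not among the 24. It had -0.44 ± 0.13 (adjusted p = 0.0891) and did not overlap between groups.

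**Figure D2:**
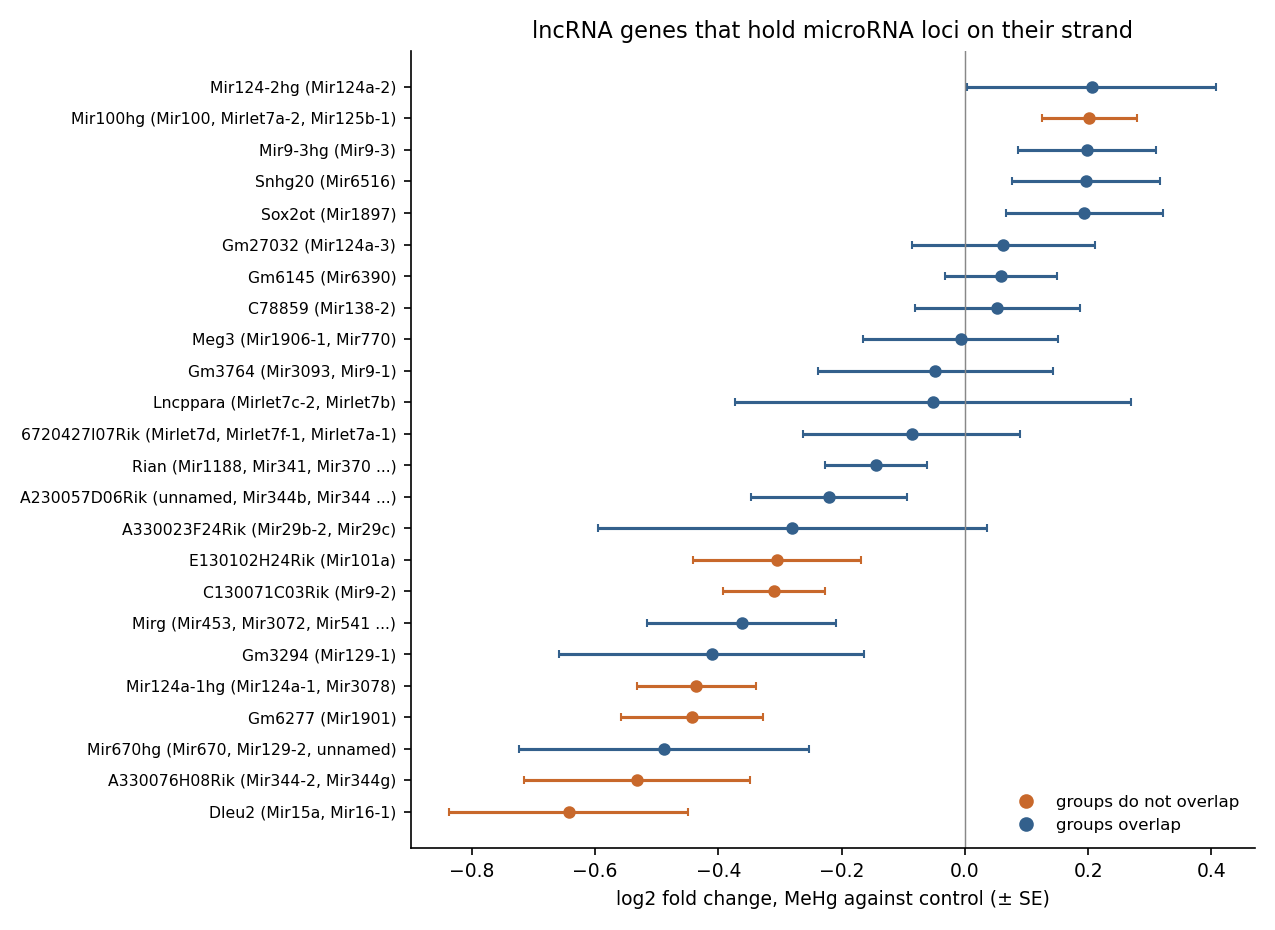
Log2 fold change, MeHg against control, with its SE (x axis) for the 24 lncRNA genes that hold microRNA loci on their strand (y axis, the first microRNAs in parentheses), in orange where the groups do not overlap. Values run from -0.64 for Dleu2 to 0.21 for Mir124-2hg, and 16 of the 24 lie below 0.

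Among lncRNAs listed for neurons and neural development, 9 were among the 150, with a median log2 fold change of -0.01 (0.20 with the length offset) and only Gm2694 called. Besides Miat, Peg13, Meg3, A230057D06Rik and Gm2694 these were Cerox1 (0.37 ± 0.11, adjusted p = 0.0875), a regulator of mitochondrial complex I, Sox2ot (0.19 ± 0.13), which overlaps the neural stem cell gene Sox2, Lhx1os (-0.07 ± 0.11), named for Lhx1, a transcription factor gene of Purkinje cells, and Gm10419 (0.26 ± 0.17). Cerox1 measured 19.1, 17.01 and 19.9 CPM in the controls and 22.5, 26.3 and 23.6 CPM in MeHg, with all MeHg libraries above all controls. The list of stress and growth lncRNAs held 3 of the 150, Gas5, Dleu2 and Meg3, and none was called.

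The genes at the ends of the range, apart from those above, were short genes. Gm47163, a single-exon gene opposite Shc2, had 0.52 ± 0.12 (adjusted p = 0.0551), at 12.4, 12.1 and 10.6 CPM in the controls and 16.3, 18.3 and 15.8 CPM in MeHg. ENSMUSG00000120081 had the lowest value, -0.82 ± 0.25 (adjusted p = 0.101), at 22.9, 19.3 and 23.8 CPM in the controls and 10.1, 18.6 and 8.70 CPM in MeHg; MeHg replicate 2 lay beside the controls and the other 2 MeHg libraries far below. Gm9821, opposite Dgkz, had -0.74 ± 0.17 (adjusted p = 0.0545). After their values were seen, 1300002E11Rik (-0.64 ± 0.14, adjusted p = 0.0516), which shares its strand with Map3k13, and Grin1os (-0.66 ± 0.17, adjusted p = 0.0733), opposite the NMDA receptor subunit gene Grin1, were also named. Grin1 had -0.20 ± 0.09 (adjusted p = 0.214).

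Coding genes on the other strand overlapped 49 of the 150 and coding genes on the same strand 13, with 2 in both classes. The antisense set had a median log2 fold change of -0.08 (-0.088 with the length offset and -0.042 with upper-quartile scaling). On the higher side 4 of its genes did not overlap between groups, 8.16% of them, beside 13.9% of all genes. On the lower side 15 did not, 30.6% of them, beside 15.5% of all genes. Of 51 antisense pairs in which both genes were tested, 37 had the same sign, with a Spearman correlation of 0.38 over pairs. Of 13 pairs on the same strand, 11 had the same sign, with 0.72. These pairs share libraries and, where transcripts overlap, reads, so the correlations are given as a description. In each class 1 partner was called: Sfpq, a paraspeckle splicing factor on the strand of Gm12940, at -0.54 ± 0.09 (Gm12940 -0.33 ± 0.12), and Med13, opposite Brip1os, at -0.37 ± 0.07 (Brip1os 0.13 ± 0.13). AW046200 and Galnt7, both lower without overlap, had -0.45 (adjusted p = 0.082) and -0.61 (adjusted p = 0.0532).

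Gene length was then set beside the fold change. The 150 genes were 680 to 93092 bases long in the deposited table, with a median of 4407.5, and were split into 3 classes of 50. Only 67 of these lengths were within 10% of the merged exon length in GENCODE vM39, so the classes rest on the deposited values. The median log2 fold change was -0.01 in the shortest class (680 to 2970 bases), -0.08 in the middle (3011 to 5790) and -0.14 in the longest (5920 to 93092). The difference of -0.13 between the longest and the shortest class compares with an SD of 0.112 between libraries of a group. It was -0.064 with 2 classes split at the median length, and ran from -0.27 without MeHg replicate 2 to -0.059 without MeHg replicate 3. All genes tested within the same limits had 0.09, 0.01 and -0.08, and coding genes 0.11, 0.02 and -0.08. The other autosomal lncRNAs had -0.02, 0.02 and 0.06. Spearman's rho between length and log2 fold change was -0.10 over the 150 (Pearson's r on log2 length 0.00079), -0.21 over all genes, -0.31 over coding genes and 0.08 over the other lncRNAs. All points share the same 6 libraries.

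Within the 3 length classes, 8, 13 and 12 of 50 genes lay lower in MeHg without overlap, and 5, 7 and 3 lay higher. Over all genes the share that lay lower was 5.85, 12.1 and 30.2%, and the share higher 18.6, 14.6 and 8.46%. The shortest lncRNAs had 16% on the lower side where all genes of that length had 5.85%. With an offset for gene length, fitted over all genes tested, the difference between the longest and the shortest class went from -0.13 to 0.075. Spearman's rho between length and log2 fold change became 0.20 over the 150 (Pearson's r on log2 length 0.28) and 0.034 over all genes. The offset thus left a length trend of the other sign in the 150. In that fit edgeR called none of the 16859 genes, and 41 of the 150 were at an unadjusted p under 0.05.

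**Figure D3:**
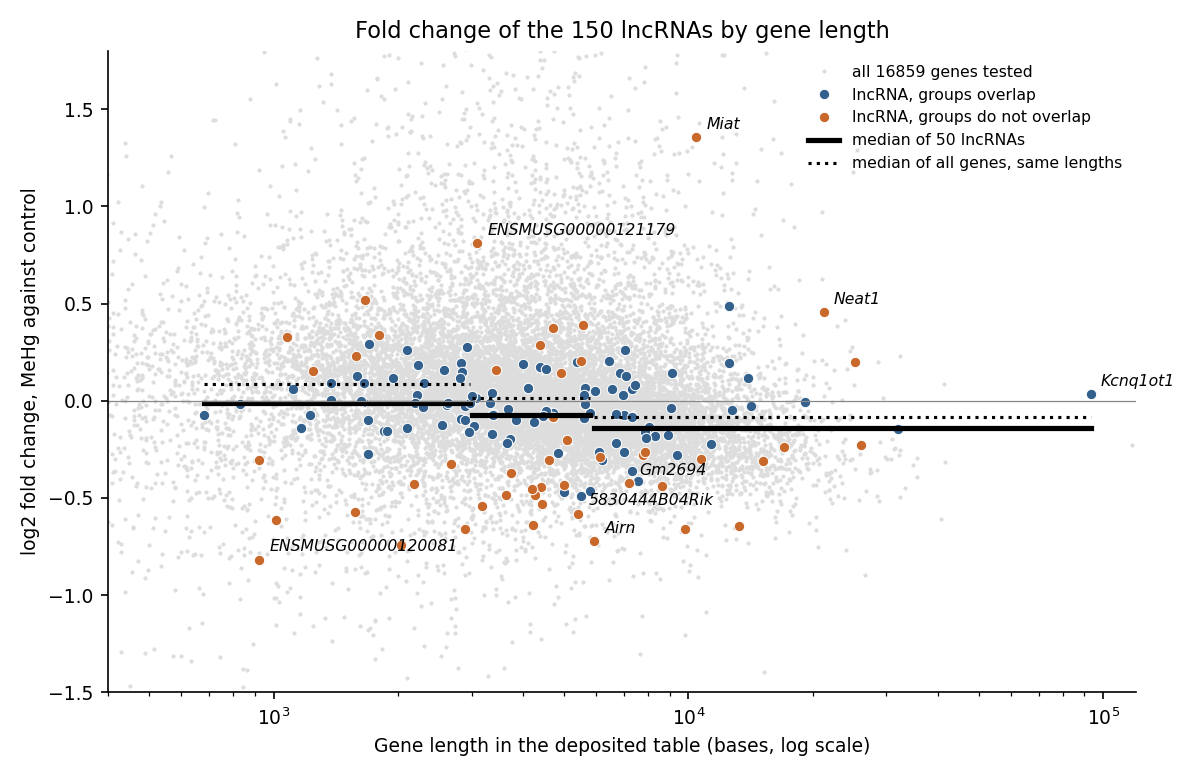
Log2 fold change, MeHg against control (y axis, limited to -1.5 to 1.8), by gene length in bases (x axis, log scale) for the 150 lncRNAs over all 16859 genes tested (grey). Solid bars are medians of 50 lncRNAs and dotted bars those of all genes of the same lengths: both step down from short to long, from -0.01 to -0.14 and from 0.09 to -0.08.

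A second feature, chosen after the values were seen, was whether a gene spans more of the genome than its deposited length. An equal span does not mean a gene without introns, since Snhg1, Zfas1 and Snhg17 are in that class. In 45 of the 150 the span equalled the length, as in Malat1, Neat1, Norad, Peg13 and Kcnq1ot1. Their median log2 fold change was 0.00; 10 lay higher and 2 lower without overlap. In the 105 with a longer span the median was -0.09; 5 lay higher and 31 lower. All genes with a span equal to their length had 10.01% higher and 9.18% lower, and all genes with a longer span 14.4% and 16.3%. Without both libraries numbered 2 the counts were 19 higher and 9 lower for the first class and 17 higher and 48 lower for the second, beside 26.1% higher and 20.8% lower of all genes with an equal span and 29.3% and 30.5% of those with a longer one. With the length offset the class medians were -0.049 and -0.095. Spearman's rho between the genomic span and the log2 fold change was -0.20 over the 150.

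**Figure D4:**
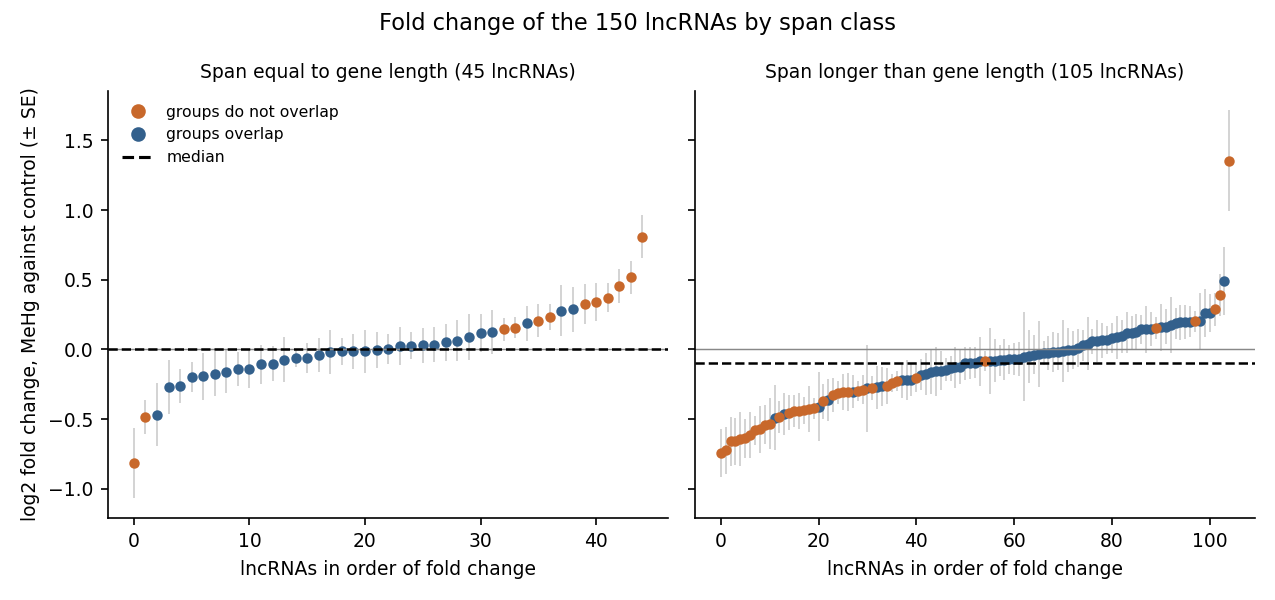
Log2 fold change, MeHg against control, with its SE (y axis) for the 150 lncRNAs in order of fold change (x axis), split by whether the genomic span equals the gene length (45 genes) or exceeds it (105 genes). Orange points are genes whose groups do not overlap: 10 higher and 2 lower in the first class, 5 higher and 31 lower in the second, with medians (dashed) of 0.00 and -0.09.

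Libraries also differed in ways that the groups do not explain. Control replicate 3 had the highest level of 49 of the 150 genes (32.7%) where it was highest for 18.9% of all genes, and MeHg replicate 2 of 33 (22%) where it was highest for 22.7%. Control replicate 1 was highest for 15 genes, control replicate 2 for 25, MeHg replicate 1 for 13 and MeHg replicate 3 for 15. The library totals behind the deposited FPKM values exceeded the column sums of the counts by 3.96 to 5.36% in controls and 8.11 to 9.03% in MeHg. This excess moved with the group, and its part in the results was not tested.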

How the data were processed

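Paired-end 150-base RNA sequencing of 6 cerebella was used. The authors deposited a count table with whole-number read counts per gene and no normalisation, and an FPKM table made by the authors from counts, gene length and a library total; its 2 group-mean columns were not used. The submitters' processing notes name mm39 and DESeq2. No source used here gives the strand setting of the counting, the annotation release or the program that aligned the reads. Of the 150 genes, 146 have an entry in GENCODE vM39 (GRCm39), 22 have no name in the deposited table, and gene length is the authors' value.

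Low counts were filtered with filterByExpr and libraries scaled by TMM. The groups were compared by the quasi-likelihood test of edgeR 4.0.16 (R 4.3.3), fitted on 16859 genes, with Benjamini-Hochberg adjustment over all of them and calls at an adjusted p under 0.05. Standard errors were taken from the fold change and the square root of F. Groups do not overlap where all 3 MeHg CPM lie on 1 side of all 3 control CPM. Alternatives were DESeq2 1.42.0, limma 3.58.1 (voom, and log2 FPKM with 1 or 0.1 added), other scalings, no filter, labelled sex, the replicate number, a length offset and leaving out each library; the Xist level as a covariate and leaving out both libraries numbered 2 were added after seeing the data. Scripts were tested on simulated data. Libraries of the same group differed beyond counting noise, with chi-square values of 7.77 to 19.7 for each degree of freedom.

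The genes named are the 10 with the highest FPKM, those called, the 3 highest and 3 lowest fold changes, members of lists of nuclear, imprinted, snoRNA host, microRNA host, neural, and stress and growth lncRNAs, and those at the limit; others are said to be chosen later or follow from a microRNA locus or an overlapping gene. A list of genes that overlap ribosomal RNA held none of the 150. Genes and lists were chosen with earlier results of these data known. MicroRNA and promoter sequences are RefSeq's (GRCm38.p6) and were matched by symbol.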

Additional observations from a re-analysis of the deposited data

How the results depend on the processing

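The median log2 fold change of the 150 genes kept its sign under every alternative run (-0.10 to -0.03), whereas the number called, 3, did not keep its size. It was 24 with DESeq2 (8.65% of all genes), 33 without a filter (7.38%), 21 with the Xist level as a covariate (9.71%), 10 with labelled sex (3.61%), 5 with limma-voom (2.12%) and 25 at an adjusted p under 0.10. It was 0 with limma on log2 FPKM with 0.1 or 1 added (42 at an unadjusted p under 0.05 in each) and 0 with the length offset (41), settings in which 0 of all genes were called. Leaving out 1 library gave 0 to 12 calls (0 to 6.33% of all genes), and leaving out both libraries numbered 2 gave 21 (10.3% of all genes). The 3 called genes remained among those called with DESeq2, limma-voom, no filter, either sex term and without both libraries numbered 2. Of the sex terms, the labelled one conflicts with the Xist and Y-linked RNA of control replicate 2. The difference between the longest and the shortest class, -0.13, was 0.075 with the length offset and ran from -0.27 (without MeHg replicate 2) to -0.059 with 1 library left out. The cause was not tested. Labels give the groups the same replicate numbers. Deviations of same-numbered libraries correlated at 0.19, 0.35 and -0.24. With 3 libraries a group, these values cannot decide whether the numbers mark pairs. With the number as a replicate block 7 genes were called (3.84% of all genes), and Lncppara was at 0.0705.

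Some fold changes changed sign, most of them near 0. Those of A330023F24Rik (-0.28), Snhg14 (-0.23) and Rian (-0.14) in the main fit were further from 0. With the length offset the values were 0.20 for Meg3, 0.14 for Rian, 0.032 for Snhg14, -0.025 for Snhg1, -0.041 for Gm27032, 0.088 for Gm3764 and -0.049 for ENSMUSG00000120976. With the Xist level they were 0.14 for Meg3, -0.0068 for Snhg1, 0.11 for Gm3764, -0.031 for ENSMUSG00000120976 and 0.19 for Lncppara. Upper-quartile scaling gave 0.030 for Meg3. Lncppara was at 0.077 and 0.038 with limma on log2 FPKM (0.1 and 1 added) and 0.074 with limma-voom. Without both libraries numbered 2, Lhx1os was at 0.021, Lncppara at 0.47, 6720427I07Rik at 0.21 and A330023F24Rik at 0.086. With 1 library left out, the ranges were -0.15 to 0.090 for Meg3, -0.080 to 0.12 for Kcnq1ot1, -0.072 to 0.084 for Snhg1, -0.0062 to 0.20 for Gm27032, -0.20 to 0.14 for Gm3764, -0.15 to 0.044 for Lhx1os, -0.035 to 0.15 for ENSMUSG00000120976, -0.34 to 0.49 for Lncppara, -0.19 to 0.066 for 6720427I07Rik and -0.035 to 0.15 for C78859. Depth was 14116088 to 20303833 counts a library, with 3 mice a group. Libraries of the same group differed beyond counting noise, with chi-square values of 7.77 to 19.7 for each degree of freedom. These values compare whole libraries, and counting error was not set against the spread between mice for single genes.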
